A study of Mus musculus with 8 samples.

Results

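The genes of the Myc and Max network were followed in mouse embryonic stem (ES) cells before and after retinoic acid (RA). The network was taken as *Myc*, *Mycn*, *Mycl1*, *Max*, *Mxi1*, *Mxd1*, *Mxd3*, *Mxd4*, *Mga* and *Mnt*, and its members were the non-control probes of the array that carry one of these 10 gene names. There were 12 such probes, on 13 spots, of 55681 probes in all, and the 10 genes stand among 21168 named genes on the array. *Mxd1* and *Mxd4* had 2 probes each, and *Myc* had 1 probe printed on 2 spots. The cells were of the line E14Tg2A.4, kept untreated and self-renewing or given all-trans RA for 72 h, with 4 arrays per condition described as biological replicates. Per the methods the RA medium lacked LIF, the cytokine that holds mouse ES cells in self-renewal, so RA and the withdrawal of LIF cannot be told apart. Every sample is of this 1 line, and the labels name no knockdown. The study used RA to start ES cells on the way to the neuronal lineage, and the comparison of the 2 conditions asks which transcripts differ once that has begun.

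Myc, Mycn and Mycl are transcription factors that cannot bind DNA alone. Each pairs with Max, and the pair binds the E-box CACGTG and brings in coactivators that acetylate histones and release paused RNA polymerase, chiefly at genes for ribosome synthesis, metabolism and growth. Mxi1, Mxd1, Mxd3, Mxd4 and Mnt compete for Max and for the same sites, and bring in the Sin3 corepressor with its histone deacetylases. Mga is a very large Max partner that also holds a T-box DNA-binding domain and is the scaffold of PRC1.6, a variant Polycomb complex that keeps genes of the germ line silent in ES cells. Mlx is a Max-like protein that pairs with Mxd1, Mxd4, Mnt and the glucose-sensing Mondo proteins. Myc activity is known to support the self-renewal of mouse ES cells.

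Values are log2 signals relative to the 75th percentile of their own array, so a value of 0 is the level of that percentile, and a difference of 1 is a 2-fold difference. A gene was called where the adjusted p of the limma fit over all probes was under 0.05 and the fold change was over 1.5, the thresholds that the study's design states. Where a gene had several probes it took the one with the highest mean over the 8 arrays. Between 56.7% and 62.7% of the non-control spots were well above background on each array, and no spot was saturated. The RA arrays lay lower on this scale as a whole, with a median change of −0.26 over 21168 genes, and quantile normalization moved that median to 0.0034. Signals of different probes were not set against each other.

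Markers of the labelled cells were read first. All 10 markers of pluripotent ES cells were called lower after RA, and their summed level (linear, relative to the 75th percentile) went from 559 to 822 on the untreated arrays to 54.3 to 132 on the RA arrays. *Pou5f1* was lower by 5.54 (SE 0.61, and −6.17 without RA replicate 2) and *Zfp42* by 3.88 (SE 0.31) on the log2 scale. All 8 genes of the RA response were called higher, *Rarb* by 7.21 (SE 0.40) and *Cyp26a1* by 6.09 (SE 0.53), which came to 5.67 and 4.68 with normexp, another way of removing background. Of the markers of other cells, 10 of 10 for extra-embryonic endoderm, 5 of 8 for mesoderm and smooth muscle, 6 of 7 for fibroblast feeders and 2 of 8 for neural cells were called higher, and 1 mesoderm marker, *Mesp1*, and 1 neural marker, *Tubb3*, were called lower. This pair was named after its values were seen. Their summed levels were 101.1 to 149 against 280.0 to 323 for endoderm, 3.73 to 6.22 against 260.0 to 489 for mesoderm and smooth muscle, 1.06 to 1.84 against 30.8 to 49.2 for fibroblast feeders and 6.20 to 9.81 against 10.6 to 11.98 for neural cells, untreated first. Every comparison described here is between arrays that also differ in these markers, and their part in the network's changes was not tested. In such bulk RNA a smaller number of cells that express a gene and a lower level in each cell cannot be told apart.

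Of the 10 network genes, 1 was called higher after RA, 4 were called lower and 5 were not called. *Mxd4* rose, and *Mycn*, *Max*, *Mxd3* and *Mga* fell. *Myc*, *Mycl1*, *Mxd1* and *Mnt* did not pass, and *Mxi1* was not above background. Over all 21168 genes 18.7% were called higher and 23.5% lower. Over the 13889 genes that, as 9 of the 10 members, were well above background on all 8 arrays, these shares were 22.2% and 27.3%. The 10% and 40% of the network are therefore 1 gene and 4 genes read against a background in which a large part of the transcriptome was called. The median change of the 9 members above background was −0.19, beside −0.15 for those 13889 genes. Under quantile normalization the values were −0.021 and −0.0073, and in the authors' own processed table −0.0325 and −0.0100.

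**Figure D1:**
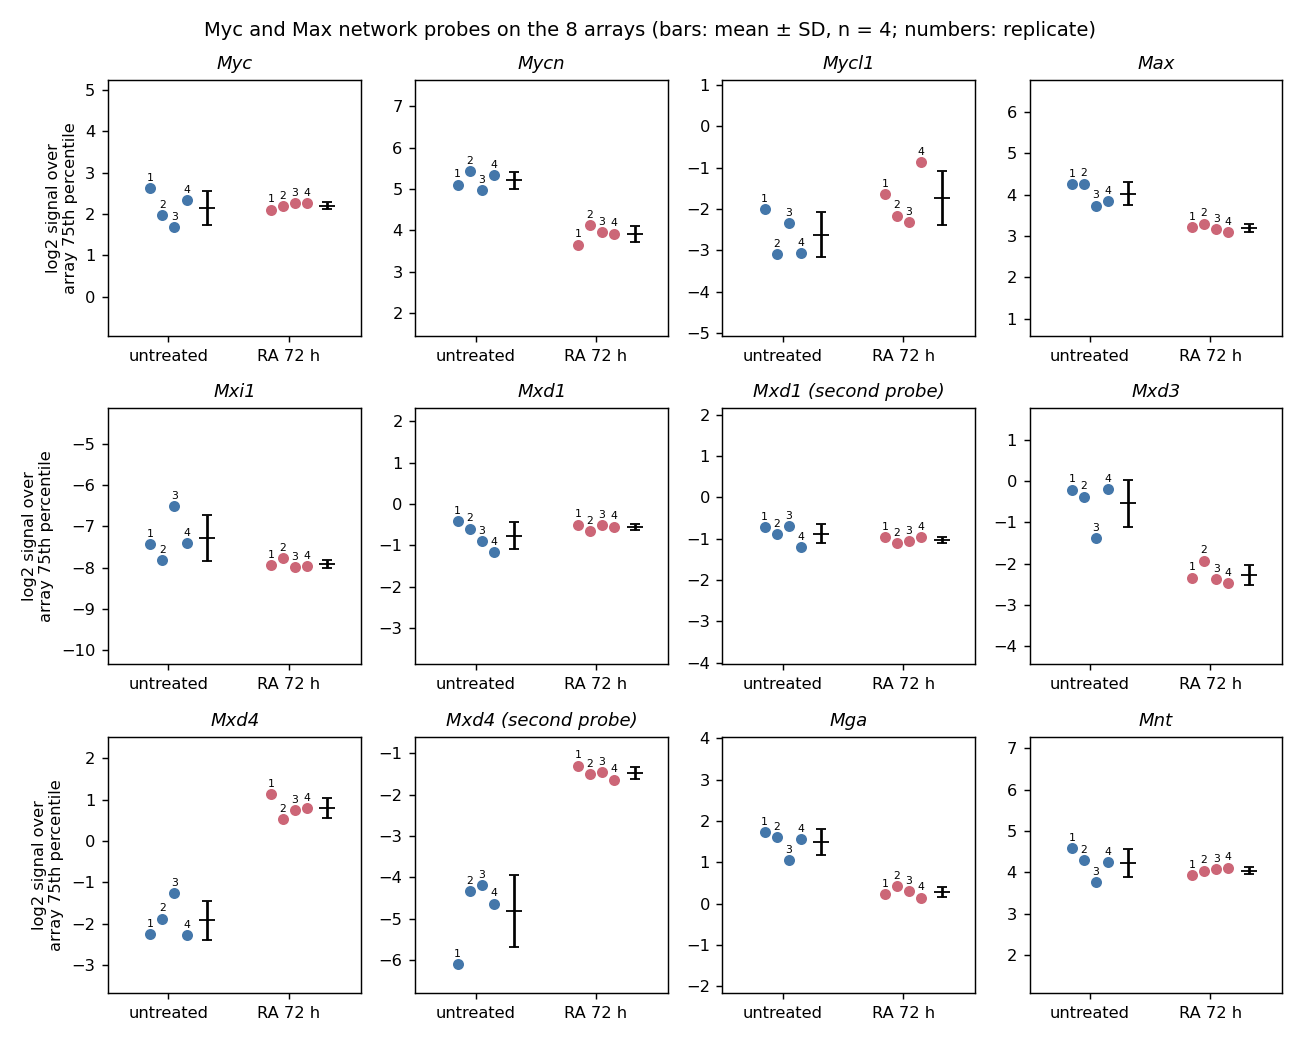
Log2 signal over the array's 75th percentile (vertical axis, the same span of log2 units in every panel) for each of the 12 network probes in the 4 untreated and 4 RA arrays, with replicate numbers at the points and the mean ± SD beside them. RA points lie wholly below the untreated points for Mycn, Max, Mxd3 and Mga, wholly above them for both Mxd4 probes, and the groups overlap at the others. Mxi1 was not above background on any array.

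The E-box that these proteins bind also occurs in the promoters of some of their own genes. The RefSeq promoter windows (GRCm38.p6), which run from 250 bases before to 50 bases after the start of a gene, were searched for CACGTG, which reads the same on both strands. Of 27025 genes with a window 8.09% held it, and of the 9 members with a window 3 did, namely *Max*, *Mxd4* and *Mnt*. They are shown because the 3 genes went 3 ways, with *Max* lower, *Mxd4* higher and *Mnt* not called. Each line gives 30 bases with the E-box in capitals.
Max: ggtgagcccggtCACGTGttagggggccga
Mxd4: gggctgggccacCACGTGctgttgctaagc
Mnt: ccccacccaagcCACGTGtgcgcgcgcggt
The *Max* stretch is chr12:76962234-76962263 on the minus strand, and its E-box begins 3 bases before the annotated start. The *Mxd4* stretch is chr5:34187912-34187941 on the minus strand, with the E-box 219 bases before the start, and the *Mnt* stretch is chr11:74830789-74830818 on the plus strand, with the E-box 123 bases before the start. No CACGTG was found in the windows of *Mycn*, *Mycl1*, *Mxi1*, *Mxd1*, *Mxd3* or *Mga*, which says only that these letters are not in those windows. The *Myc* promoter is not shown here. A match is a description of the letters and not of binding.

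Among the Myc proteins, which activate transcription, *Mycn* fell and *Myc* did not pass. *Mycn*, the Myc gene known for its role in the early embryo and the nervous system, was read by a probe at mm9 chr12:12943193-12943252 on the minus strand. Its values were 5.10, 5.43, 4.98 and 5.33 in untreated replicates 1 to 4, and 3.66, 4.12, 3.96 and 3.92 in RA replicates 1 to 4. The lowest untreated array stood above the highest RA array. The mean went from 5.21 ± 0.21 to 3.91 ± 0.19 (SD, n = 4 each), a change of −1.30 (SE 0.17, 95% interval −1.67 to −0.92), or 2.46-fold lower, with an adjusted p of 0.000324. The arrays lay on 2 glass slides, each with 2 arrays of either condition, and the fall was −1.25 within slide 1 and −1.34 within slide 2.

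*Myc*, the founding member and a target of LIF signalling, lay at 2.62, 1.97, 1.67 and 2.34 in the untreated arrays and at 2.10, 2.18, 2.27 and 2.26 in the RA arrays. The RA values all fell inside the range of the untreated ones, whose spread was several times larger (SD 0.41 against 0.076). The difference of 0.053 (SE 0.21, adjusted p = 0.848) has a 95% interval from −0.42 to 0.53, so the data leave room for a change of up to 1.45-fold upward or 1.34-fold downward. Its sign turned when untreated replicate 2 (−0.0075) or untreated replicate 3 (−0.11) was left out. The probe covers mm9 chr15:61821417-61821476 on the plus strand.

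*Mycl1*, now named *Mycl*, was higher in the mean but did not pass. It stood at −2.00, −3.09, −2.33 and −3.07 in the untreated arrays and at −1.64, −2.16, −2.31 and −0.86 in the RA arrays, and the groups overlapped. The difference of 0.88 (SE 0.37, 95% interval 0.03 to 1.73) had an adjusted p of 0.0953. It did pass with the slide as a block (adjusted p = 0.0100) and with the normexp background correction (0.62, adjusted p = 0.0492), and over the 8 alternative fits with all arrays its adjusted p ran from 0.0100 to 0.665.

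*Max*, the partner on which the Myc, Mxd, Mnt and Mga proteins depend, fell. It was read at 4.25, 4.27, 3.74 and 3.84 in the untreated arrays and at 3.22, 3.30, 3.17 and 3.1 in the RA arrays, from a probe at mm9 chr12:78038272-78038331 on the minus strand. No RA array reached the lowest untreated one. The change was −0.83 (SE 0.17, 95% interval −1.21 to −0.45), 1.78-fold lower, with an adjusted p of 0.00425, and it was −0.84 and −0.82 within the 2 slides. Relative to the median of all genes the fall was smaller than this value, and under quantile normalization, where that median is 0.0034, it was −0.67. A test against a change of 1.5-fold rather than against 0 did not pass (adjusted p = 0.334).

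Of the Mxd genes and *Mxi1*, which encode the Max partners that recruit Sin3, *Mxd4* rose, *Mxd3* fell and the others were not called. *Mxd4*, known from differentiating and resting cells, was the only network gene called higher. Its brighter probe lay at −2.24, −1.87, −1.26 and −2.28 in the untreated arrays and at 1.13, 0.53, 0.76 and 0.80 in the RA arrays. Every RA array was above every untreated array by more than 1 log2 unit. The change of 2.72 (SE 0.25, 95% interval 2.15 to 3.29) is 6.58-fold, with an adjusted p of 5.51e-05, and it was 2.72 within either slide.

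The other *Mxd4* probe gave the same direction. It read −6.10, −4.33, −4.19 and −4.63 in the untreated arrays and −1.30, −1.51, −1.46 and −1.64 in the RA arrays. In untreated replicate 1 it was not well above background. The fitted change was 3.34 (SE 0.39, adjusted p = 0.000191), or 10.1-fold, and it fell to 1.90 with the normexp correction and to 2.04 in the authors' table. The size of the rise at this dim probe thus depends on how background was removed, while both remained called. The probes are 60 bases long and sit 47 bases apart, so that they share 13 bases, printed in capitals in the stretches of 30 bases below, and they are not independent readings of the transcript.
Mxd4, brighter probe: atcattccagaagtattAAATATCATTTCT
Mxd4, other probe: AAATATCATTTCTacaaatctcggcaggat
On mm9 the probes lie at chr5:34519323-34519382 and chr5:34519276-34519335, on the minus strand.

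*Mxd3*, which unlike its relatives is known from proliferating cells in S phase, fell most of the network. Its values were −0.21, −0.38, −1.37 and −0.20 in the untreated arrays and −2.34, −1.93, −2.38 and −2.48 in the RA arrays. Untreated replicate 3 stood apart from the other untreated arrays, between them and the RA arrays, but above all of the latter. The change was −1.74 (SE 0.28, 95% interval −2.38 to −1.11), 3.34-fold lower, with an adjusted p of 0.00119. It was −2.02 without untreated replicate 3 and −1.40 after normexp and quantile normalization.

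*Mxd1*, induced in many cells as they mature, did not pass at either probe. The brighter read −0.41, −0.60, −0.89 and −1.16 in the untreated arrays and −0.50, −0.66, −0.52 and −0.55 in the RA arrays, a difference of 0.21 (SE 0.18, 95% interval −0.21 to 0.62, adjusted p = 0.368). The other differed by −0.14 (SE 0.15, adjusted p = 0.46). RA and untreated arrays overlapped at both. The *Mxi1* probe was not well above background on any of the 8 arrays, so no change is given for this gene, which counts as not called. A single stretch of the transcript decides that reading, and it does not show that *Mxi1* is silent.

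*Mnt*, the broadly expressed antagonist of Myc, did not pass either. It lay at 4.59, 4.29, 3.77 and 4.25 in the untreated arrays and at 3.92, 4.04, 4.07 and 4.11 in the RA arrays, where all values fell inside the untreated range. The difference was −0.19 (SE 0.19, 95% interval −0.61 to 0.24, adjusted p = 0.426), and −0.021 under quantile normalization. The interval allows up to 1.53-fold lower.

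*Mga*, the scaffold of PRC1.6, fell. Its values were 1.73, 1.61, 1.05 and 1.57 in the untreated arrays and 0.22, 0.42, 0.31 and 0.14 in the RA arrays, from a probe at mm9 chr2:119792479-119792538 on the plus strand. The conditions did not overlap. The change of −1.22 (SE 0.18, 95% interval −1.62 to −0.81) is 2.32-fold lower, with an adjusted p of 0.000722, and it moved little with the scaling, from −1.22 to −1.12 over the alternatives.

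**Figure D2:**
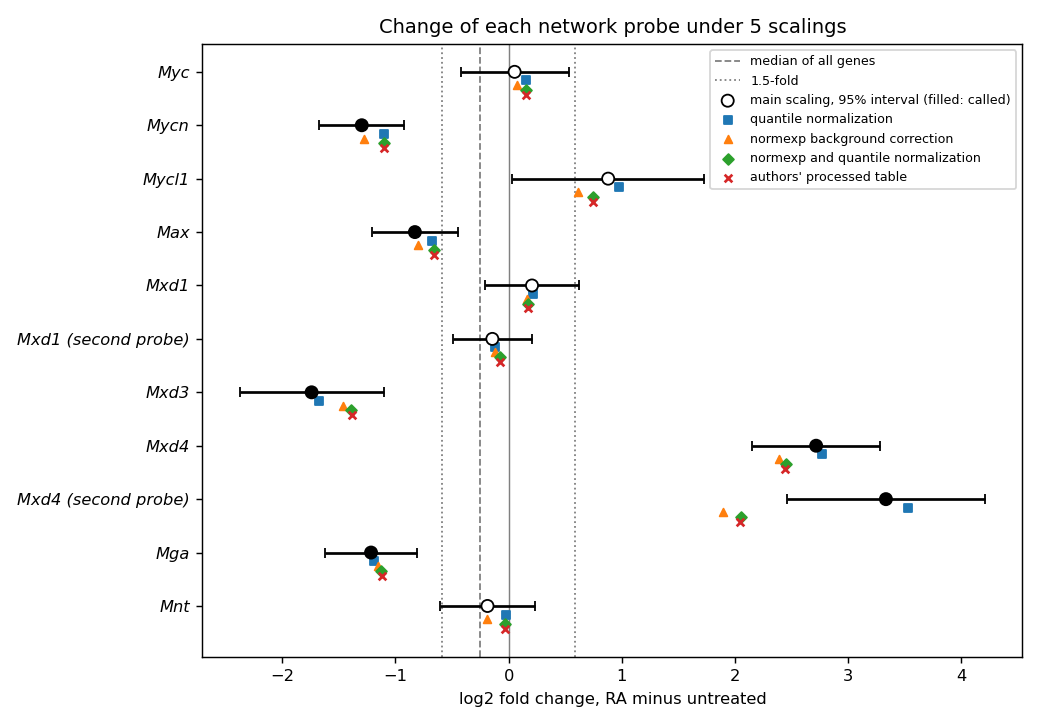
Log2 fold change (RA minus untreated, horizontal axis) of the 11 network probes above background (Mxi1 is left out). Circles with bars are the fit with its 95% interval, filled where called, and the small symbols are the same change under other scalings. The dashed line is the median of all genes, −0.26, and dotted lines mark 1.5-fold. The called probes keep their side of 0 under every scaling, and the dim Mxd4 probe moves most, from 3.34 to 1.90.

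The untreated arrays varied more than the RA arrays at these genes. At 9 of the 10 member probes that were well above background on all arrays the SD was larger among untreated arrays, with a median SD of 0.34 against 0.10. Over all 27493 such probes 71.1% had the larger SD among untreated arrays, and the medians were 0.28 and 0.19. Untreated replicate 3 was the untreated array nearest to the RA mean at all 5 called members, as it was for 40.3% of 6880 called genes. The summed level of the pluripotent markers in it was 559, against 748 to 822 in the other untreated arrays, and the part of this difference in the members' values was not tested. Without that array the network counts were as before, 1 higher and 4 lower.

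The genes whose pattern over the 8 arrays was nearest to that of a Myc gene were ranked by the root mean square difference of centred log2 values, among 13888 genes well above background on all arrays. For *Myc* they were *Abi2* (0.0905 log2 units), *Trmt112* (0.0962) and *Mrps21* (0.101), which like it did not pass. For *Mycn* they were *Chtf18* (0.0979), *Dgcr14* (0.0992) and *Actr3b* (0.102), lower after RA by 1.42, 1.26 and 1.27 on the log2 scale. The likeness rests on 8 arrays of 2 conditions and says nothing of shared control.

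Of 17 genes for proteins that Myc recruits or meets on DNA, including *Zbtb17* for Miz1, 6 were called lower, 1 was called higher and 10 were not called, beside 23.5% lower and 18.7% higher over all genes, with a median change of −0.42. Of the 17, 16 were well above background on all 8 arrays. Over all such genes 27.3% were called lower and 22.2% higher, and the median was −0.15. *Ing3*, a subunit of the NuA4 histone acetylase, fell by 1.38 (SE 0.16, adjusted p = 0.000207), with −1.61 and −1.16 within slides 1 and 2, and *Ruvbl2*, an ATPase of the same complex, fell by 1.06 (SE 0.13, adjusted p = 0.000219). *Cdk9*, the kinase of P-TEFb that releases paused polymerase, fell by 0.84 (SE 0.16, adjusted p = 0.00355). *Trrap*, the scaffold that Myc binds directly, was the one that rose, by 0.78 (SE 0.15, adjusted p = 0.00371). The *Zbtb17* probe was not well above background on any array.

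Of 13 genes for the corepressors of Mxd and Mnt, 4 were called lower and 1 was called higher, with a median of −0.10. *Sap30*, a Sin3 subunit, fell by 1.23 (SE 0.21, adjusted p = 0.00161). *Arid4a* fell by 0.82 and *Hdac2* by 0.79 (SE 0.17 and 0.15). *Rbbp7*, a histone chaperone shared with other complexes, rose by 1.08 (SE 0.16, adjusted p = 0.000783). *Sin3b* itself differed by −0.10 (adjusted p = 0.543), and this difference turned to 0.16 under quantile normalization. Its other, dimmer probe was called lower, by 0.68 (adjusted p = 0.0271). The 4 of 13 called lower stand beside 23.5% of all genes. All 13 were well above background on all 8 arrays, and of all such genes 27.3% were called lower and 22.2% higher, with a median of −0.15.

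The partners of Mga in PRC1.6 were split. Of 12 genes 5 were called higher and 4 were called lower, beside 18.7% and 23.5% over all genes, and the list's median was 0.36 against −0.26 for all genes. All 12 were well above background on all 8 arrays, and over all such genes the shares were 22.2% and 27.3% and the median −0.15. *Yaf2* and *Rybp*, which encode alternative subunits that bind the same surface of Ring1 proteins, went opposite ways. *Yaf2* rose 4.91-fold, by 2.30 (SE 0.13, adjusted p = 6.42e-06), and *Rybp* fell 2.99-fold, by 1.58 (SE 0.17, adjusted p = 0.000114). *E2f6*, the E2F-family repressor that guides the complex to promoters, rose by 1.02 (SE 0.14, adjusted p = 0.000487), and *Ring1*, a catalytic subunit, rose by 0.80 (SE 0.19, adjusted p = 0.00849). *L3mbtl2*, the subunit that defines this complex together with Mga, fell by 1.55 (SE 0.21, adjusted p = 0.000422).

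*Pcgf6*, whose protein gives PRC1.6 its number, was 3.26, 3.26, 3.02 and 3.48 in the untreated arrays and 2.62, 2.62, 2.47 and 2.58 in the RA arrays. The conditions did not overlap, and the fall of 0.68 (SE 0.14, adjusted p = 0.0051) is 1.6-fold. The call was lost under 4 of the 8 alternative fits with all arrays. The fall came to 0.54 under quantile normalization, 0.53 with normexp and quantile normalization and 0.53 in the authors' table, each under the 1.5-fold limit, and a test against 1.5-fold did not pass (adjusted p = 0.727). *Tfdp2*, an E2F partner, fell by 0.70 (SE 0.18, adjusted p = 0.0129), but by 0.58 and no longer over 1.5-fold without untreated replicate 3.

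Of 16 genes that control the stability of the Myc proteins, 3 were called lower and 2 higher, with a median of −0.27. Over all genes the shares were 23.5% and 18.7%, and the median −0.26. All 16 were well above background on all 8 arrays, and over all such genes these were 27.3%, 22.2% and −0.15. *Usp28*, a deubiquitinase that opposes the Fbxw7 ubiquitin ligase at Myc, fell 5.01-fold, by 2.33 (SE 0.22, adjusted p = 6.83e-05). *Gsk3b*, which phosphorylates Myc and so marks it for Fbxw7, rose by 1.29 (SE 0.15, adjusted p = 0.000183). *Btrc*, another ubiquitin ligase subunit, rose by 1.38 (SE 0.22, adjusted p = 0.00108) at its brighter probe, while the other differed by −0.19 (SE 0.21, adjusted p = 0.463). *Aurka*, a kinase that shields N-Myc from degradation, fell by 0.99 (SE 0.24, adjusted p = 0.0111). *Fbxw7* itself was lower by 0.52 (SE 0.17, adjusted p = 0.0359) at its brighter probe, a change under 1.5-fold that was called without untreated replicate 4 (−0.64). Its other probe differed by 0.064 (SE 0.19, adjusted p = 0.80). These are transcript levels, and the amounts of the Myc proteins were not measured on the arrays.

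In the Mlx branch 3 of 5 genes were called lower and none higher, beside 23.5% and 18.7% over all genes, with a median of −1.49. All 5 were well above background on all 8 arrays, and over all such genes the shares were 27.3% and 22.2% and the median −0.15. *Txnip*, the thioredoxin-binding arrestin that slows glucose uptake and is the best known target of Mlx and its Mondo partners, stood at 4.94, 4.65, 4.16 and 4.18 in the untreated arrays and at −1.41, −1.60, 0.040 and −1.88 in the RA arrays. This was 51.7-fold lower, with a change of −5.69 (SE 0.41, adjusted p = 1.56e-05). *Arrdc4*, its close relative and another target, stood at 3.31, 2.60, 2.93 and 2.75 against −1.28, −1.18, −0.62 and −1.58. This was 16.7-fold lower, with a change of −4.06 (SE 0.24, adjusted p = 6.8e-06), and −4.55 and −3.57 within slides 1 and 2.

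*Mlxipl*, the gene of the Mondo protein ChREBP, fell by 1.49 (SE 0.36, adjusted p = 0.0105), and a test against 1.5-fold did not pass (adjusted p = 0.0866). *Mlx* differed by −0.33 (adjusted p = 0.12) and *Mlxip*, the gene of MondoA, by 0.38 (adjusted p = 0.11), and neither was called. The promoter windows of *Arrdc4*, *Mlxipl* and *Mlx* hold the E-box, 3 of the 5 genes of the branch, against 8.09% of all genes. No CACGTG was found in the windows of *Txnip*, which fell most, or *Mlxip*. The stretches of the 2 called genes that hold it are shown with the E-box in capitals.
Arrdc4: aaaggtcctgtgCACGTGcactatggtgtc
Mlxipl: gcggctgccatcCACGTGctaaggagagaa
They lie on GRCm38.p6 at chr7:68749414-68749443 on the minus strand, 193 bases before the start, and at chr5:135089780-135089809 on the plus strand, 98 bases before the start.

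Of 42 genes widely used as targets that Myc activates, 20 were called lower and 1 was called higher, with a median change of −0.66 against −0.26 for all genes and 23.5% of them called lower. Over the 41 of these genes well above background on all 8 arrays the median was −0.62, against −0.15 for all such genes. Of all such genes 27.3% were called lower and 22.2% higher. *Srm*, the spermidine synthase, fell by 1.72 (SE 0.18, adjusted p = 1.0e-04), *Rrs1*, a ribosome assembly factor, by 1.64 (SE 0.17, adjusted p = 9.58e-05), and *Dkc1*, which modifies ribosomal RNA, by 1.56 (SE 0.23, adjusted p = 0.000743). *Cad*, the enzyme that starts pyrimidine synthesis, fell by 0.74 (SE 0.24, adjusted p = 0.0406), and lost its call under most alternatives. The exception was *Ccnd2*, cyclin D2, which rose 16.5-fold, by 4.04 (SE 0.24, adjusted p = 6.42e-06).

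Other standard targets did not pass. *Odc1*, the ornithine decarboxylase, differed by −0.20 (SE 0.17, adjusted p = 0.355), and *Npm1*, nucleophosmin, by −0.043 (SE 0.17, adjusted p = 0.848). Both differences turned positive under quantile normalization, to 0.039 and 0.32. *Ncl*, nucleolin, was lower by 0.62 (SE 0.23, adjusted p = 0.0591), and was called with all arrays when dim probes were filtered out (−0.62, adjusted p = 0.0372) and without untreated replicate 2 (−0.85), the lowest of the untreated arrays for this gene. The other *Ncl* probe differed by 0.49 (adjusted p = 0.215). Of the 36 genes of the list with a promoter window 6 held the E-box, of which 1 was called lower and 5 were not called.

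**Figure D3:**
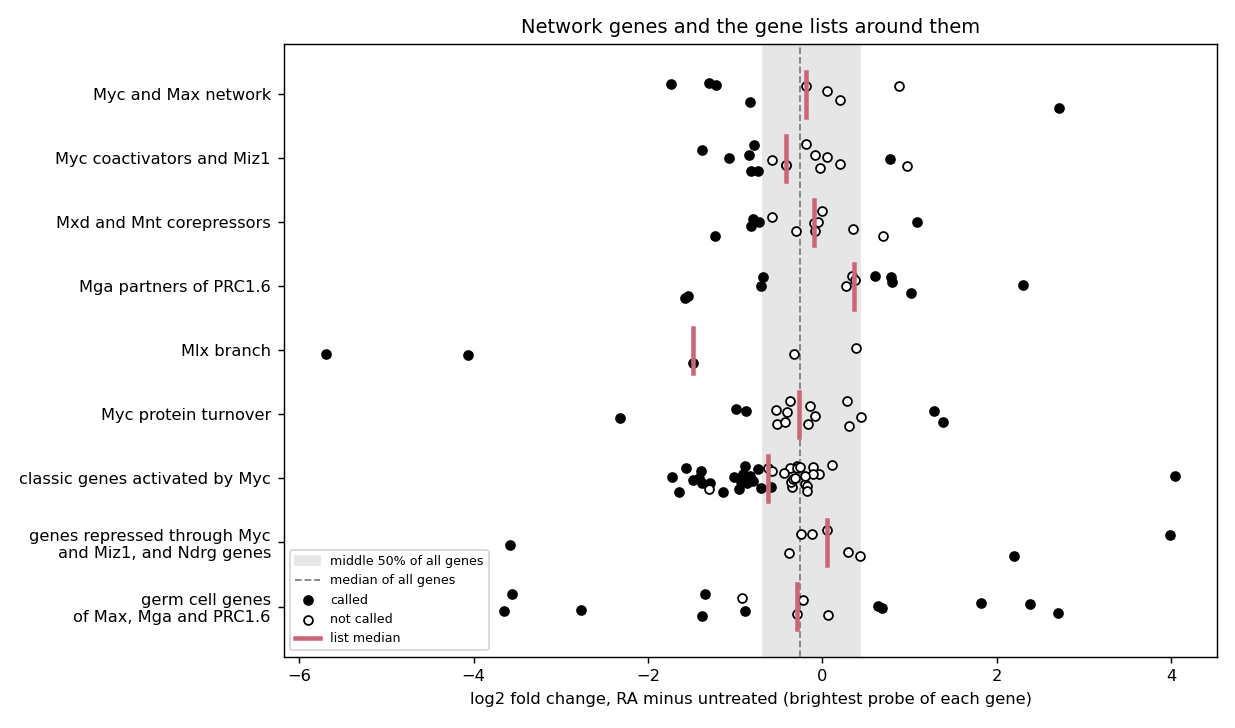
Log2 fold change (RA minus untreated, horizontal axis) of each gene above background in the network and in 8 lists around it, by its brightest probe. Filled points were called, the red bar is the median of the points, and the grey band and dashed line are the middle 50% and the median of all genes. The Mlx branch reaches −5.69, and the genes that Myc activates crowd on the lower side with Ccnd2 alone at 4.04.

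Genes that Myc represses through Miz1, listed together with the Ndrg family, held 2 called higher and 1 called lower of 9, beside 18.7% and 23.5% over all genes, with a median of 0.055. All 9 were well above background on all 8 arrays, and over all such genes the shares were 22.2% and 27.3% and the median −0.15. *Cdkn2b*, the cell cycle inhibitor p15, rose 15.8-fold, by 3.99 (SE 0.38, adjusted p = 6.87e-05), and *Cdkn1c*, the inhibitor p57, rose 4.58-fold, by 2.20 (SE 0.18, adjusted p = 2.98e-05). *Cdkn1a*, p21, differed by 0.29 (SE 0.19, adjusted p = 0.227) and was not called. The difference was −0.059 within slide 1 and 0.64 within slide 2, and the other probes of the gene gave −0.63 and −0.57, not called either. *Ndrg1*, the N-myc downstream regulated gene that gave the family its name, differed by −0.38 (SE 0.23, adjusted p = 0.209). *Ndrg2*, its relative, fell 12-fold, by 3.58 (SE 0.28, adjusted p = 2.28e-05), and was thus lower together with *Mycn*.

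The germ cell genes that Max, Mga and PRC1.6 hold down in ES cells moved both ways. Of 15 genes 5 were called higher, 6 were called lower and 4 were not called, with a median of −0.29. All were well above background on all 8 arrays, and of all such genes 22.2% were called higher and 27.3% lower. *Stra8*, which opens meiosis and is a known RA target, rose 6.52-fold, by 2.71 (SE 0.58, adjusted p = 0.00553). Its values were 1.23, 1.24, 0.89 and 1.42 in the untreated arrays and 2.70, 2.79, 5.19 and 4.92 in the RA arrays, so that RA replicates 3 and 4 stood well above 1 and 2. These arrays also had the higher summed level of the RA response genes, 193 and 173 against 107.4 and 119.6, a difference whose part in *Stra8* was not tested.

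*Tdrkh*, of the piRNA pathway, rose by 2.38 (SE 0.40, adjusted p = 0.00146), and *Ddx4*, the germ line helicase known as Vasa, by 1.82 (SE 0.22, adjusted p = 0.00024). *Hormad1*, of the meiotic chromosome axis, fell 12.6-fold, by 3.66 (SE 0.33, adjusted p = 5.27e-05), *Sycp3*, of the synaptonemal complex, 6.81-fold, by 2.77 (SE 0.34, adjusted p = 0.000268), and *Tex101*, a germ cell surface protein, 11.8-fold, by 3.56 (SE 0.42, adjusted p = 0.00021). *Hormad1* stood at 0.36, −0.29, 0.21 and −0.067 in the untreated arrays and at −3.45, −2.70, −3.93 and −4.32 in the RA arrays. With the normexp correction the rise of *Tdrkh* was 1.48, and the changes of *Hormad1* and *Tex101* were −2.77 and −2.94, or −2.66 and −2.82 in the authors' table, and all remained called. *Tex101* changed by −4.46 within slide 1 and by −2.67 within slide 2. *Ddx4* stood at −0.11, −0.32, 0.66 and 0.13 against 2.13, 1.79, 1.79 and 1.94.

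The promoters of this list are rich in the E-box. Of the 14 genes with a window 9 held CACGTG, or 64.3%, against 8.09% of all genes. The E2F core GCGGGA, searched on both strands, lay in 8 of the 14, or 57.1%, against 22.05% of all genes, and both motifs lay in 7 of the 14, against 2.32%. The list was made from genes known as targets of Max, Mga, E2f6 and PRC1.6, so these shares describe it and are no independent evidence. Of the 9 genes with the E-box 2 were called higher, 4 were called lower and 3 were not called. The stretches of the called genes are shown, those that rose before those that fell, with the E-box in capitals.
Ddx4: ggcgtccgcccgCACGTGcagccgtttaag
Mael: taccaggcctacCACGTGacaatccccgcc
Hormad1: atgcgcactgcgCACGTGctgaccggagcg
Sycp3: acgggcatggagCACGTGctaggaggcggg
Sycp1: tagagaacccggCACGTGggaagggaaatc
Stag3: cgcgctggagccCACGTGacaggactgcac
On GRCm38.p6 they lie at chr13:112652322-112652351 (minus strand, *Ddx4*), chr1:166238950-166238979 (minus, *Mael*), chr3:95559645-95559674 (plus, *Hormad1*), chr10:88459532-88459561 (plus, *Sycp3*), chr3:102936177-102936206 (minus, *Sycp1*) and chr5:138280327-138280356 (plus, *Stag3*). Where a window held several, the E-box nearest the start is shown.

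**Figure D4:**
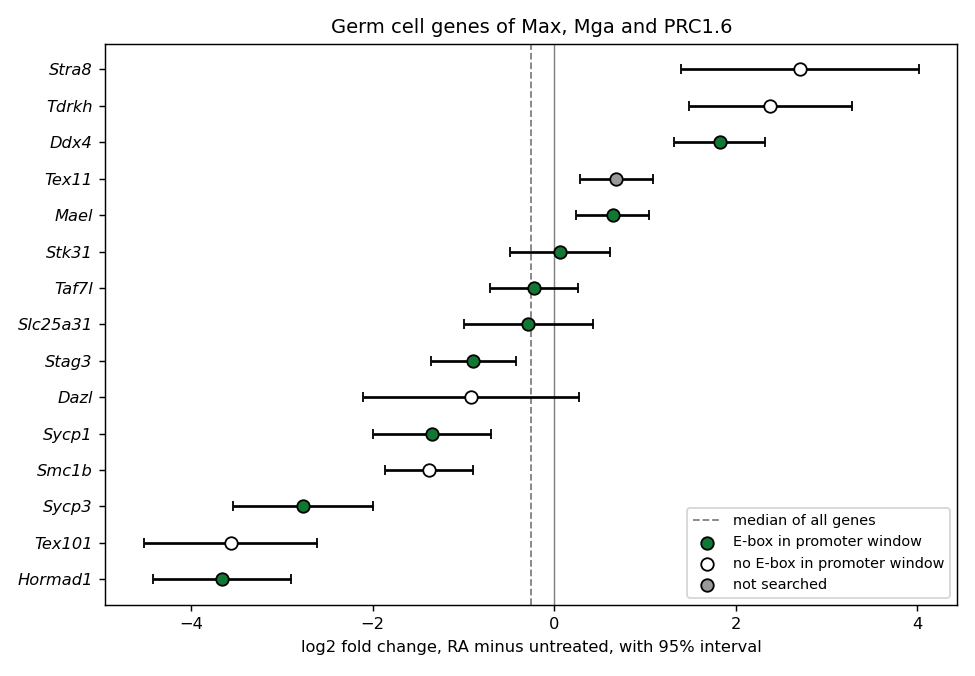
Log2 fold change (RA minus untreated, horizontal axis) with its 95% interval for the 15 germ cell genes of Max, Mga and PRC1.6. Green points hold the E-box CACGTG in the promoter window, white points do not, the grey point was not searched, and the dashed line is the median of all genes. Genes with the E-box lie on both sides, from Hormad1 at −3.66 to Ddx4 at 1.82.

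Promoter windows were found for 16556 genes on the arrays. Of 1554 genes with the E-box 19.0% were called higher and 27.3% lower, and of 15002 without it 18.4% and 23.3%. The median changes were −0.20 and −0.26. No test was made of this difference.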

How the data were processed

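The 8 expression arrays (Agilent SurePrint G3, 1 colour, Cy3, RNA amplified from oligo-dT) were analysed, 4 untreated and 4 given RA for 72 h; groups and replicate numbers came from the sample titles. The authors deposited, per the file headers, the Feature Extraction output (version 10.7.3.1, mm9) of each array, with the processed intensity, corrected for background and detrended within the array, the raw and background intensity, and flags. Their own processed log2 values, also deposited, have 1 median, 6.89, on every array, and the normalization behind them is not given in the sources used here. They ranked spots as the scanner values did (Spearman 0.978 to 0.988), and they served as an alternative.

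In R 4.3.3 processed intensities were put on the log2 scale and set against the 75th percentile of their array, over 59305 non-control spots. Spots flagged as outliers (124 to 145 per array, none of a member) were left out, spots of a probe were averaged, and no filter on dim probes was applied. limma 3.58.1 (lmFit, eBayes) was fitted over 55681 probes with the Benjamini-Hochberg adjustment over all of them. The same fit was afterwards run on simulated data with known changes, drawn from the means and spread of these arrays, and its outcome is not given here. All adjusted p values come from this fit, and intervals are its 95% intervals. The number of arrays limits the precision. Sequences were read from the scanner files (probes) and from RefSeq windows. Network genes, lists and tests were chosen with earlier results of these data known. Named are all members, for each list the 3 called genes that rose and the 3 that fell most among probes well above background on all arrays of a condition, a fixed set of genes, and the genes nearest to *Myc* and *Mycn*. The rule named 1 more gene, which is not reported here. *Mlx*, *Mlxip*, *Mael*, *Sycp1*, *Stag3* and *Zbtb17* were named after their values were seen.

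The methods name no pairing of the arrays, and the main fit used none. Deviations from the group means correlated between same-numbered arrays by 0.10 to 0.19 over 27493 probes. Since differently numbered arrays reached 0.14, these values cannot settle whether the replicate numbers pair the arrays. Alternatives were other scalings and background corrections, the authors' table, a filter on probes well above background on fewer than 4 arrays, slide and replicate blocks, a test against 1.5-fold, the mean of a gene's probes, and leaving out each array. Slide 1 held untreated replicates 1 and 3 with RA replicates 1 and 4, and slide 2 held the others.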

Additional observations from a re-analysis of the deposited data

Results flagged for a closer look

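Dixon's test at the 95% level was run on the 4 arrays of either condition. It covered each member probe and the brightest probe of each list gene and marker named by rule. An array was marked as far from the others in 5 of 122 groups of 4 arrays, where chance gives about 6.1. Among the 24 groups of network probes there was 1. For *Mxd3* untreated replicate 3 lay at −1.37, with the other untreated arrays at −0.38 to −0.20. *Zfp42* was also lowest in untreated replicate 3, at 6.34 against 6.56 to 6.58. *Odc1* and *Ncl* were lowest in untreated replicate 2, at 5.50 against 5.75 to 5.77 and at 6.91 against 7.75 to 7.87. *Ndrg2* was highest in RA replicate 3, at −2.16 against −2.53 to −2.50 in the other RA arrays.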

How the results depend on the processing

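All 5 called members and both *Mxd4* probes kept their direction under every alternative, and their call under each of them except *Max* in the test against 1.5-fold. The count of network genes called higher became 2 with the normexp correction and with the slide as a block, both through *Mycl1*. Testing against 1.5-fold left 9 lower of the genes that Myc activates, 0 higher and 2 lower coactivators, 1 lower corepressor, 2 higher and 2 lower PRC1.6 partners, 1 lower gene of Myc turnover, 2 lower genes of the Mlx branch, and 3 higher and 4 lower germ cell genes. It left 2433 genes higher and 2512 lower, and 4171 probes higher and 5728 lower. Among the genes that lost their call in that test were *Trrap*, *Cdk9*, *Arid4a*, *Hdac2*, *Ring1*, *Tfdp2*, *Pcgf6*, *Mlxipl*, *Aurka* and *Cad*. With the slide as a block 2 corepressor genes were higher. Normexp with quantile normalization gave 6603 lower probes, and 6583 were lower in the authors' values, against 12044.

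Of single genes, *Sin3b*, *Odc1* and *Npm1* turned from lower to higher, to 0.16, 0.039 and 0.32 with quantile normalization, to 0.13, 0.011 and 0.35 with normexp and quantile normalization, and to 0.13, 0.018 and 0.345 in the authors' table. None was called in these fits, with adjusted p of 0.239 to 0.277 for *Sin3b* and 0.911 to 0.968 for *Odc1*, while *Npm1* passed on the adjusted p (0.00462 to 0.0268) and not on the fold. Leaving out each array in turn, coactivators called higher ranged from 1 to 2, the change of *Myc* from −0.11 to 0.21 and that of *Npm1* from −0.15 to 0.034, and without untreated replicate 2 there were 5 lower network genes, through the dim *Mxi1* probe. The causes were not tested. With the replicate block the network counts stayed at 1 higher and 4 lower. Single calls were checked in it for the members and for the list genes and markers named by rule. Of these only that of *Cad* was lost (adjusted p = 0.0546), and the other calls reported here were not checked singly. Under the quantile scaling 52.5% of called genes were higher, against 44.3%. Dim probes limit *Mxi1* and *Zbtb17*, and 4 arrays a condition limit the changes that could be called.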
